A study of Mus musculus with 12 samples.

Results

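The genes of glycolysis, of pyruvate and lactate handling, of the pentose phosphate pathway and of the hypoxia-inducible factor (HIF) feedback loop were followed in mouse mesenchymal stromal cells (MSCs) treated with A1. The set was given as 39 gene symbols, which were matched to 40 of the 55487 genes in the deposited count table, because Aldoa has a second row with 2 to 11 counts that was left out. Of the 39 genes, 35 passed the filter on low counts and were tested together with all 11314 tested protein-coding genes. The other 4 genes, Slc2a3, Aldoc, Eno2 and Slc16a3, held at most 8 counts in any sample.

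The study asked how A1, an Accum variant made of cholic acid linked to a nuclear localization signal peptide of hnRNPA1, changes MSCs that then present antigen. Primary bone marrow MSCs from wild-type C57BL/6 females formed 3 groups of 4 samples: untreated control MSCs (labelled Negative), MSCs given 50 μM A1 for 6 h, and MSCs given 50 μM A1 with 1 mg/mL ovalbumin (OVA, a model antigen) for the same time, labelled A1-OVA. Apart from the possible insulin addition described next, all groups were grown in the same serum-containing medium, and no group received OVA alone. The study's RNA-seq methods give no vehicle and no treatment time for the control MSCs. The protocol text names insulin, with its amount cut off, in the medium of A1-OVA only, so that OVA and a possible insulin addition cannot be told apart in that group. The labels do not say whether the 4 samples of a group came from separate animals or cultures, so the p-values measure only the spread between these samples, which may be technical.

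Glycolysis splits glucose into pyruvate, which is either reduced to lactate by lactate dehydrogenase and exported, or carried into mitochondria and oxidized by the pyruvate dehydrogenase (PDH) complex, which PDH kinases switch off. The pentose phosphate pathway branches off after the hexokinase step and yields NADPH and ribose. HIF-1α, which prolyl hydroxylases mark for degradation when oxygen is present, raises the transcription of many glycolytic genes and of its own hydroxylases, and stromal cells of the marrow, a tissue low in oxygen, are known to rely strongly on glycolysis.

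Each sample held between 13702348 and 16881995 counts, and the members took 0.693% to 0.831% of them. Mitochondrial genes took 3.35% to 3.65% of the counts in control, 2.81% to 3.29% in A1 and 2.77% to 3.06% in A1-OVA, so that all treated samples lay below all controls. On the scale of CPM (counts scaled to a common library size, with TMM factors), the summed MSC markers Cd44, Nt5e, Thy1, Eng, Ly6a, Pdgfra and Pdgfrb lay between 821.5 and 881.3 CPM in control, 986.3 and 1017 CPM in A1 and 894.6 and 909.9 CPM in A1-OVA, with Cd44 higher and Ly6a and Pdgfra lower in both treated groups than in control. Pdgfrb was also lower in A1-OVA than in control (log2 fold change -0.14, adjusted p = 0.0038, edgeR), and had no call in A1 at -0.01. Thy1 did not pass the filter, and Nt5e stayed under 1 CPM on average. Markers of leukocytes summed to 9.41 to 10.5 CPM in control, 11.98 to 14.7 CPM in A1 and 10.7 to 13.1 CPM in A1-OVA, with Cd14 higher in both treated groups, Cd68 without a call and Ptprc, Adgre1, Csf1r, Itgam and Lyz2 below the filter. Endothelial markers summed to at most 0.534 CPM and erythroid markers to at most 0.0591 CPM, with 0 of 3 tested in either list. Adipocyte markers summed to 2.95 to 5.01 CPM in control and 1.32 to 2.32 CPM in the treated samples, with Adipoq and Cidec lower and Plin1 not tested. In bulk samples such as these, fewer cells of a type and less RNA per cell cannot be told apart, and the part of these markers and of the mitochondrial share in the results was not tested.

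The promoters of 6 members are shown as examples of genes that moved past a log2 fold change of 0.5, in either direction. The HIF binding core, ACGTG or GCGTG, can be read in each of them. It can also be read in the windows of Pfkl, Pfkp, Pgam1, Ldhb, Pdk4 and Egln3, which moved past 0.5 too and are not shown. Each line is the 250 bases before the 5′-most RefSeq start of the gene (GRCm38.p6), 5′ to 3′ in the direction of the gene. Capitals mark ACGTG or GCGTG on either strand. All windows counted here were chosen in this way, and which start these MSCs use was not tested. Slc2a1 (chr4:119108495-119108744, plus strand), Hk2 (chr6:82774455-82774704, minus strand), Ldha (chr7:46845554-46845803, plus strand) and Bnip3 (chr7:138909507-138909756, minus strand) rose with A1. Pfkm (chr15:98092339-98092588, plus strand) and Pdk2 (chr11:95041372-95041621, minus strand) fell. The Ldha window lies inside the longer Ldha gene model of GENCODE.
Slc2a1: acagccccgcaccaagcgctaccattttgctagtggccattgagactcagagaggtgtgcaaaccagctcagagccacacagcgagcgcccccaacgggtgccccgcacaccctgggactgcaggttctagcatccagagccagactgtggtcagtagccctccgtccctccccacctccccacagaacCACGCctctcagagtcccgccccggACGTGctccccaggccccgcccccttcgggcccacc
Hk2: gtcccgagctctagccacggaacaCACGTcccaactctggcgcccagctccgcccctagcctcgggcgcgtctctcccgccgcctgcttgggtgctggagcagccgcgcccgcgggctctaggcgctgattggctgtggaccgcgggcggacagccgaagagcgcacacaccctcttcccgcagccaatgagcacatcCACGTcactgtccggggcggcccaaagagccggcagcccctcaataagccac
Ldha: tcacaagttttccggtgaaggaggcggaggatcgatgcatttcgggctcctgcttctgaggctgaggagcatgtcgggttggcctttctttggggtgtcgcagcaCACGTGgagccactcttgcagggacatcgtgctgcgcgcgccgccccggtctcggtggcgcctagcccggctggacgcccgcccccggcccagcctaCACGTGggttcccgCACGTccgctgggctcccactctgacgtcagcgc
Bnip3: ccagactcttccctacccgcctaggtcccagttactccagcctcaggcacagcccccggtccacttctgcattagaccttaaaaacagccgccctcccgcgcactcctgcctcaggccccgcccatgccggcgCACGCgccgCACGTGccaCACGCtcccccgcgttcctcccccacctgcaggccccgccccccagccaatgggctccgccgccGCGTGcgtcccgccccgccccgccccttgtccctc
Pfkm: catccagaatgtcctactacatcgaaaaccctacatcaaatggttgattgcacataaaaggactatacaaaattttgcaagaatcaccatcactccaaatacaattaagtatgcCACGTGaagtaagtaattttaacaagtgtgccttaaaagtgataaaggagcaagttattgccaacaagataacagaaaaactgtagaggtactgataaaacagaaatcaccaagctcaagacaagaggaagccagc
Pdk2: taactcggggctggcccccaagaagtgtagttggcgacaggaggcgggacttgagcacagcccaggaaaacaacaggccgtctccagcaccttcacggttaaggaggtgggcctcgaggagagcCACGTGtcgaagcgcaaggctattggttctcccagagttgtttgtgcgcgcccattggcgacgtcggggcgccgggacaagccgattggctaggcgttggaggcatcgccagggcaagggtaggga

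Counting a CACGTG, which reads ACGTG on both strands, as 1 site, ACGTG stood at 3 sites in the Ldha window and at 2 in that of Hk2, and at 1 site each in the windows of Pfkm and Pdk2, which fell. Among the 38 members with an entry in the RefSeq promoter table, ACGTG stood in 15 windows (39.5%), against 22.3% of the 8954 windows of tested genes and 16.5% of all 27025 windows. It stood in 10 of the 22 members that rose with A1 (45.5%), in 3 of the 7 that fell (42.9%) and in 1 of the 6 without a call (16.7%). In the same order, GCGTG stood in 12 (54.5%), 4 (57.1%) and 5 (83.3%) of these members. Either core stood in 17 (77.3%), 7 (100%) and 5 (83.3%), so the members that rose had the lowest share of both. GCGTG was found in 57.9% of member windows and in 47.2% of those of tested genes, and either core in 81.6% and 58.5%. The E-box CACGTG, which contains ACGTG, was found in 15.8% of member windows and in 8.58% of those of tested genes, and TGATGNAA, an element of the ATF4 type, in 0 of 38 member windows and in 1.89% of those of tested genes. These matches are a description of the windows and do not show binding.

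A1 raised most of the glycolytic chain at once, from the glucose transporter Slc2a1 (2.34-fold) to lactate dehydrogenase Ldha (1.52-fold) and the lactate and pyruvate carrier Slc16a1 (1.34-fold). The log2 fold changes of the 4 pentose phosphate enzymes lay between -0.12 and 0.10. Within several enzyme families the isozymes moved apart: Hk2, Pfkl, Pfkp and Ldha rose, and Pfkm, Ldhb and Pdk2 fell. Against control, 22 of 35 tested members were higher and 7 lower with A1 at an adjusted p under 0.05 in edgeR's quasi-likelihood test, where 31.7% of all tested genes were higher and 30.8% lower. Of these, 9 members were higher past a log2 fold change of 0.5 (9.40% of all tested genes) and 3 were lower past -0.5 (11.6%). The median log2 fold change over tested members was 0.26, beside 0.00 over all tested genes.

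**Figure D1:**
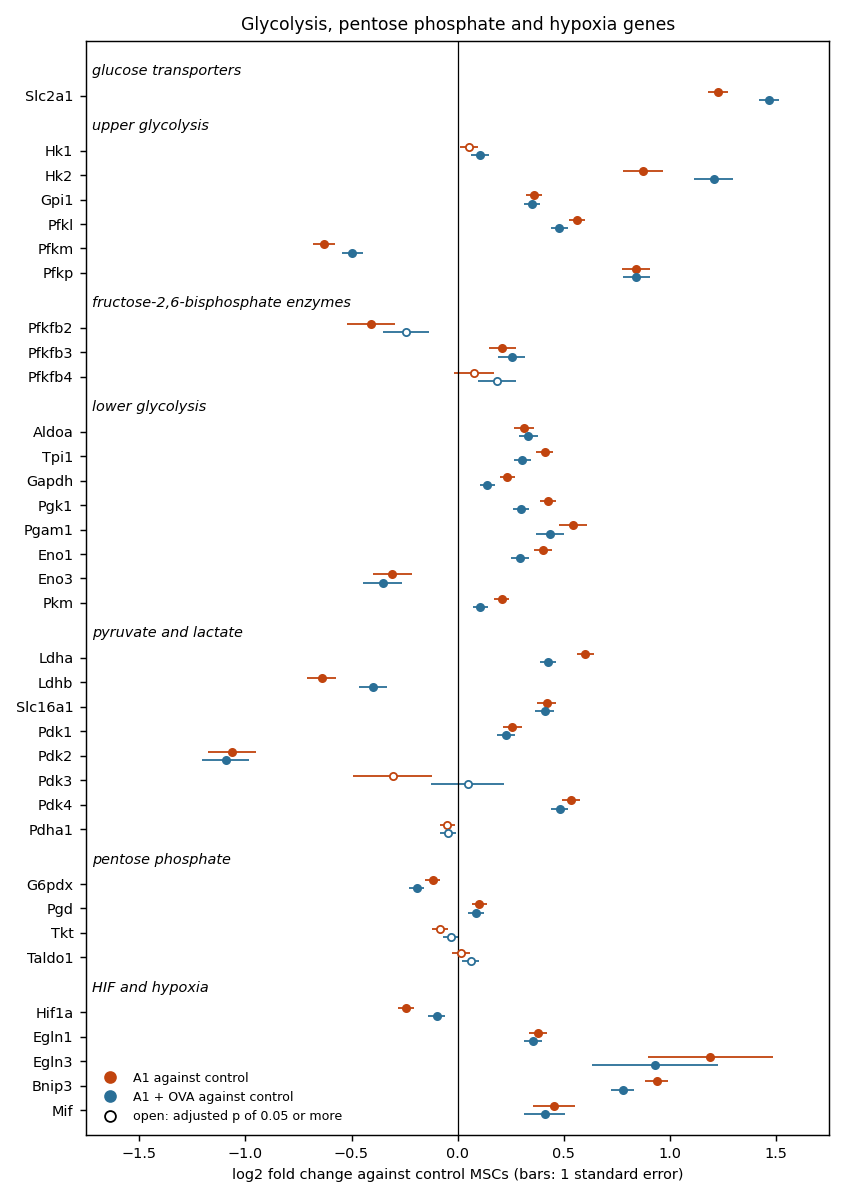
Log2 fold change of the 35 tested members, grouped by role, for A1 (orange) and A1-OVA (blue) against control MSCs, with bars of 1 standard error and open circles for an adjusted p of 0.05 or more. Slc2a1 and Egln3 lie farthest right for A1 at 1.22 and 1.19, Pdk2 lies farthest left at -1.06, and the 4 pentose phosphate genes lie between -0.19 and 0.10 in both treatments.

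Slc2a1 (GLUT1, the basal glucose transporter of most cells; GRCm38 chr4:119108711-119137983) had the largest rise of the set in fold. Its level was 41.6, 37.3, 39.6 and 41.2 CPM in the control samples, 88.7, 91.6, 93.4 and 99.1 CPM with A1, and 110.7, 110.0, 114.3 and 106.3 CPM with A1-OVA. The 3 groups did not overlap, with A1-OVA highest and control lowest. The log2 fold change against control was 1.22 ± 0.05 (SE, adjusted p = 9.0e-19, edgeR) with A1 and 1.47 ± 0.05 (adjusted p = 1.2e-20, edgeR) with A1-OVA. Slc2a3 (GLUT3), the other transporter of the set, held 0 to 8 counts per sample and was not tested.

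Hexokinase, which traps glucose in the cell, is encoded in these MSCs by Hk1 and Hk2. Hk2, the inducible form (chr6:82725025-82774454), stood at 41.8, 45.3, 46.7 and 45.4 CPM in control, 71.7, 90.6, 76.8 and 89.0 CPM with A1, and 92.6, 95.3, 118.3 and 106.9 CPM with A1-OVA. Every treated sample lay above every control sample, and every A1-OVA sample above every A1 sample. Its log2 fold change was 0.87 ± 0.09 with A1 (adjusted p = 3.2e-06, edgeR) and 1.20 ± 0.09 with A1-OVA (adjusted p = 1.1e-07, edgeR). Hk1, the constitutive form, was at 217.1, 228.8, 243.6 and 238.1 CPM in control, 229.4, 250.1, 237.2 and 245.4 CPM with A1, and 245.8, 241.8, 247.2 and 262.0 CPM with A1-OVA, so that its groups overlapped. Its log2 fold change with A1 was 0.05 with a 95% interval of -0.03 to 0.14, and did not pass the test. With A1-OVA it was 0.10 (adjusted p = 0.032, edgeR), a call that was lost in 10 of 20 alternative settings, 6 of which left out 1 sample.

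Phosphofructokinase-1 commits sugar to glycolysis, and its liver (Pfkl), muscle (Pfkm) and platelet (Pfkp) forms took different directions. Pfkl (chr10:77986947-78010083) rose from 131.9, 122.2, 132.0 and 133.3 CPM in control to 195.8, 188.7, 191.7 and 190.3 CPM with A1 and 176.5, 187.0, 185.7 and 174.5 CPM with A1-OVA. Pfkp (chr13:6579768-6648777) rose from 15.9, 18.0, 17.6 and 19.3 CPM to 29.3, 32.8, 32.8 and 31.9 CPM with A1 and 30.9, 32.7, 31.3 and 32.0 CPM with A1-OVA. Pfkm (chr15:98092589-98132451) fell from 67.5, 68.6, 71.3 and 70.6 CPM to 45.1, 48.3, 42.4 and 43.9 CPM with A1 and 47.3, 46.3, 50.4 and 53.1 CPM with A1-OVA. For all 3 forms the treated samples were separated from the controls, and for Pfkm and Pfkp both treatments overlapped. The log2 fold changes with A1 were 0.56 ± 0.04 for Pfkl (adjusted p = 4.4e-13, edgeR), 0.84 ± 0.07 for Pfkp (adjusted p = 5.4e-12, edgeR) and -0.63 ± 0.05 for Pfkm (adjusted p = 1.7e-11, edgeR). With A1-OVA they were 0.48, 0.84 and -0.50. Gpi1, the isomerase that precedes this step, rose by 0.36 ± 0.04 with A1 and 0.35 ± 0.04 with A1-OVA on the log2 scale.

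The PFKFB enzymes make and break fructose-2,6-bisphosphate, an activator of phosphofructokinase-1. Pfkfb3, the form with the strongest kinase activity, rose on the log2 scale by 0.21 ± 0.06 with A1 (adjusted p = 0.0060, edgeR) and 0.25 ± 0.06 with A1-OVA (adjusted p = 0.0011, edgeR). Pfkfb2 was lower with A1, at a log2 fold change of -0.41 ± 0.11 (adjusted p = 0.0026, edgeR), with all 4 A1 samples (6.87 to 8.39 CPM) below all 4 controls (10.0 to 10.5 CPM). With A1-OVA its log2 fold change of -0.25 did not pass the test (adjusted p = 0.053, edgeR), and passed it in 7 of 20 alternative settings. Pfkfb4 did not pass the test either, with 0.08 (95% interval -0.12 to 0.27) for A1 and 0.18 (-0.002 to 0.370) for A1-OVA.

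**Figure D2:**
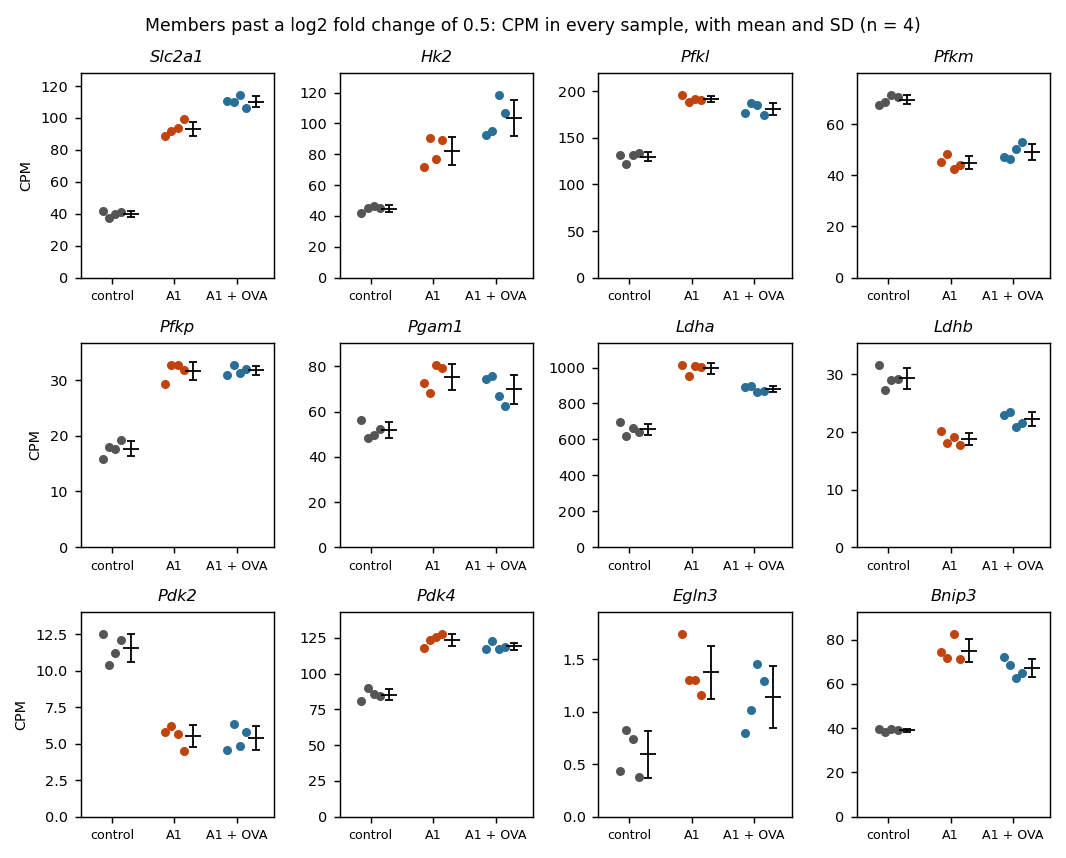
CPM in each of the 12 samples for the 12 members past an absolute log2 fold change of 0.5 in any comparison, with the mean and SD of each group (n = 4) in black and every vertical axis starting at 0. Pfkm, Ldhb and Pdk2 are lower in both treated groups, the other 9 genes are higher, and only for Egln3 do treated and control samples overlap, in A1-OVA.

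In the lower part of the chain, from aldolase to pyruvate kinase, 7 of 8 tested members were higher with A1 and 1 was lower, and the same 7 and 1 were called with A1-OVA. Of all tested genes, 31.7% were higher and 30.8% lower with A1, and 29.7% and 28.1% with A1-OVA. Pgam1 (phosphoglycerate mutase, chr19:41911923-41918660) changed most, from 56.4, 48.4, 49.6 and 52.1 CPM in control to 72.7, 68.2, 80.8 and 79.2 CPM with A1 and 74.3, 75.9, 66.9 and 62.3 CPM with A1-OVA. All treated samples were above all controls, and the treatments overlapped. Its log2 fold change was 0.54 ± 0.07 with A1 (adjusted p = 3.2e-07, edgeR) and 0.43 ± 0.07 with A1-OVA. The rises of Aldoa (aldolase A), Tpi1 (triosephosphate isomerase), Gapdh (glyceraldehyde-3-phosphate dehydrogenase), Pgk1 (phosphoglycerate kinase, the first step that yields ATP), Eno1 (enolase 1) and Pkm (pyruvate kinase) lay between 0.21 and 0.43 with A1 and between 0.11 and 0.33 with A1-OVA on the log2 scale. For these 6 genes and Pgam1 no treated sample overlapped a control sample in either comparison. Such separation was common: of 11314 tested genes, 3165 lay wholly above and 2988 wholly below control with A1. With A1-OVA, 2876 lay wholly above and 2711 wholly below. Gapdh, often taken as a reference gene, was among them, with 814 ± 35 CPM in control (SD, n = 4), 957 ± 2 CPM with A1 and 897 ± 17 CPM with A1-OVA.

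Enolase also split by isozyme. Eno3, the muscle form, was at 13.9, 10.8, 12.8 and 12.6 CPM in control, 11.2, 9.16, 9.54 and 10.5 CPM with A1 and 10.6, 10.1, 9.04 and 9.55 CPM with A1-OVA. It was lower with A1 (-0.31 ± 0.09, adjusted p = 0.0056, edgeR) although the groups overlapped by 1 A1 sample, and lower with A1-OVA (-0.35 ± 0.09, adjusted p = 0.0017, edgeR) without overlap. Eno2, the neuronal form, had 0 to 3 counts, which is at or under the floor of 3 counts, and Aldoc had 0 to 6, so neither could be compared at this depth. Processed copies of the glycolytic genes and the second Aldoa row held at most 0.219% of the counts of their parent gene, though how the authors treated reads that match several places is not given in the sources used here. Pkm shares its strand with an overlapping transcript of up to 776 counts, beside 15611 to 18906 counts of Pkm itself.

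At the end of the chain, Ldha, whose enzyme favours the reduction of pyruvate to lactate, and Ldhb, whose enzyme favours the reverse, moved in opposite directions. Ldha (chr7:46841475-46855627) was at 694.6, 620.1, 665.2 and 642.7 CPM in control, 1016, 952.5, 1007 and 1004 CPM with A1 and 892.1, 897.0, 865.7 and 871.1 CPM with A1-OVA. Ldhb (chr6:142490249-142507957) was at 31.7, 27.3, 28.96 and 29.2 CPM in control, 20.1, 18.0, 19.2 and 17.8 CPM with A1 and 22.9, 23.5, 20.8 and 21.6 CPM with A1-OVA. In both genes the 3 groups were separate, with A1 farthest from control and A1-OVA between them. The log2 fold changes with A1 were 0.60 ± 0.04 for Ldha (adjusted p = 5.3e-14, edgeR) and -0.64 ± 0.07 for Ldhb (adjusted p = 2.5e-09, edgeR), and with A1-OVA 0.43 ± 0.04 and -0.40 ± 0.06. Slc16a1 (MCT1, a carrier of lactate and pyruvate) rose by 0.42 ± 0.04 and 0.41 ± 0.04 on the log2 scale. Slc16a3 (MCT4, the carrier linked to lactate export in glycolytic cells) had 0 to 3 counts per sample and was not detectable at this depth.

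The 4 PDH kinases, which hold pyruvate back from oxidation, did not move as a group. Pdk2 (chr11:95026258-95041354) fell from 12.5, 10.4, 11.2 and 12.1 CPM in control to 5.79, 6.18, 5.65 and 4.50 CPM with A1 and 4.57, 6.33, 4.82 and 5.79 CPM with A1-OVA. Pdk4 (chr6:5483351-5496309), the most abundant of the 4 per exon length, rose from 80.6, 90.1, 85.8 and 84.5 CPM to 117.6, 123.6, 125.2 and 127.5 CPM with A1 and 117.4, 122.6, 117.2 and 118.8 CPM with A1-OVA. In both genes the treated samples were separate from the controls and the treatments overlapped. The log2 fold changes with A1 were -1.06 ± 0.11 for Pdk2 (adjusted p = 3.5e-09, edgeR) and 0.53 ± 0.04 for Pdk4 (adjusted p = 4.4e-12, edgeR), and with A1-OVA -1.09 ± 0.11 and 0.48 ± 0.04. Pdk1, a HIF target in many cells, rose by 0.26 ± 0.04 and 0.23 ± 0.04 on the log2 scale. Pdk3 stayed at 1.23 to 2.51 CPM, and its log2 fold change of -0.31 with A1 had a 95% interval of -0.69 to 0.07. Without A1 replicate 4, which held 17 counts of Pdk3, that value was -0.16. Pdha1, the catalytic subunit of PDH that these kinases act on, did not pass the test, with 95% intervals of -0.12 to 0.03 in both comparisons.

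The log2 fold changes of the 4 pentose phosphate genes lay between -0.19 and 0.10 in both treatments. G6pdx, the entry enzyme of the NADPH-producing branch, was lower in all 8 treated samples than in any control, by 0.12 ± 0.04 on the log2 scale with A1 (adjusted p = 0.0065, edgeR) and by 0.19 ± 0.04 with A1-OVA (adjusted p = 5.0e-05, edgeR). Pgd, the next NADPH-producing enzyme, was higher by 0.10 ± 0.04 with A1 (adjusted p = 0.016, edgeR) and 0.09 ± 0.04 with A1-OVA (adjusted p = 0.042, edgeR), again without overlap. The Pgd call with A1-OVA was lost in 16 of 20 alternative settings and that with A1 in 2 of 20. Tkt (transketolase) and Taldo1 (transaldolase) of the non-oxidative branch did not pass the test, though Tkt passed it with A1 in 5 of 20 alternative settings. Their log2 fold changes with A1 were -0.08 (95% interval -0.16 to -0.01) and 0.02 (-0.07 to 0.10), and with A1-OVA -0.03 (-0.11 to 0.05) and 0.06 (-0.03 to 0.15).

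Among the hypoxia genes, the transcript of Hif1a itself was lower while 4 genes known to respond to its protein were higher. Hif1a (chr12:73901375-73947530) was at 359.2, 379.8, 365.0 and 367.7 CPM in control, 299.0, 307.1, 330.2 and 306.6 CPM with A1 and 345.9, 351.9, 348.3 and 327.3 CPM with A1-OVA. The treated samples lay below the controls, and the treatments overlapped by 1 sample on each side. The log2 fold change was -0.24 ± 0.04 with A1 (adjusted p = 3.5e-06, edgeR) and -0.10 ± 0.04 with A1-OVA (adjusted p = 0.028, edgeR), where the call was lost in 3 of 20 alternative settings. HIF-1α is regulated mainly as a protein, which was not measured in these samples.

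Bnip3 (chr7:138890836-138909519), a mitochondrial protein that promotes mitophagy, was at 39.8, 38.1, 39.5 and 39.1 CPM in control, 74.3, 71.5, 82.4 and 71.2 CPM with A1 and 72.1, 68.6, 62.7 and 64.9 CPM with A1-OVA, with treated samples far above the controls. It rose by 0.94 ± 0.05 with A1 (adjusted p = 6.6e-15, edgeR) and 0.78 ± 0.05 with A1-OVA (adjusted p = 5.0e-13, edgeR) on the log2 scale. Egln1 (PHD2, the main HIF prolyl hydroxylase) rose by 0.38 ± 0.04 and 0.36 ± 0.04, and the cytokine gene Mif by 0.45 ± 0.10 and 0.41 ± 0.10 on the log2 scale. Egln3 (PHD3, the hydroxylase most strongly induced by hypoxia in many cells; chr12:54178981-54203860) was at 0.433, 0.828, 0.743 and 0.376 CPM in control, 1.74, 1.30, 1.30 and 1.16 CPM with A1 and 0.797, 1.01, 1.45 and 1.29 CPM with A1-OVA. These values rest on 6 to 14, 16 to 24 and 11 to 22 counts, and 1 A1-OVA sample lay below the highest control. Its log2 fold change was 1.19 ± 0.29 with A1 (adjusted p = 8.1e-04, edgeR) and 0.93 ± 0.30 with A1-OVA (adjusted p = 0.0082, edgeR).

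The isozyme contrasts were tested within samples, as the difference between groups in the log2 ratio of CPM of a pair of family members, with an exact two-sided permutation test of 4 against 4 samples. The 10 pairs in 3 comparisons gave 30 tests, and the smallest p this design allows is 0.0286, which became 0.0451 after Benjamini-Hochberg adjustment. With A1, 9 of 10 pairs reached it. The ratio of Pdk2 to Pdk1 fell by 1.31, that of Ldhb to Ldha by 1.24 and that of Pfkm to Pfkl by 1.19 on the log2 scale, each with no overlap between the 4 treated and the 4 control samples. Those of Pfkfb2 to Pfkfb3 and of Pdk3 to Pdk1 fell by 0.62 and 0.57. The ratio of Hk2 to Hk1 rose by 0.81, that of Egln3 to Egln1 by 0.71, that of Pdk4 to Pdk1 by 0.28 and that of Pfkp to Pfkl by 0.27. With A1-OVA, 7 of 10 pairs reached it against control: Hk2 to Hk1 (1.09), Pfkp to Pfkl (0.36), Pfkm to Pfkl (-0.98), Pfkfb2 to Pfkfb3 (-0.52), Ldhb to Ldha (-0.83), Pdk2 to Pdk1 (-1.32) and Pdk4 to Pdk1 (0.25). Full separation from control was common in single genes, with 3165 of 11314 tested genes wholly higher and 2988 wholly lower with A1. The share for other pairs of genes was not computed, so the number of pairs does not set these families apart.

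Expressed per exon length, Hk2 made up 21.6% ± 0.3 (SD, n = 4) of hexokinase RNA in control, 32.7% ± 1.7 with A1 and 37.1% ± 2.5 with A1-OVA. The share of Pfkm in phosphofructokinase-1 RNA went from 50.1% ± 0.9 to 30.2% ± 1.3 and 33.4% ± 1.9, and Pfkl held 46.8% in control but 64.5% and 61.3% in the treated groups. Ldhb went from 8.61% ± 0.18 of lactate dehydrogenase RNA to 3.83% ± 0.17 and 5.04% ± 0.18. Within the PDH kinases, Pdk4 held 65.8%, 74.4% and 73.8%, and Pdk2 9.91%, 3.70% and 3.69%. These shares use the merged exon length of each gene, which can exceed the length of the transcript that is made, so they compare groups better than genes.

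**Figure D3:**
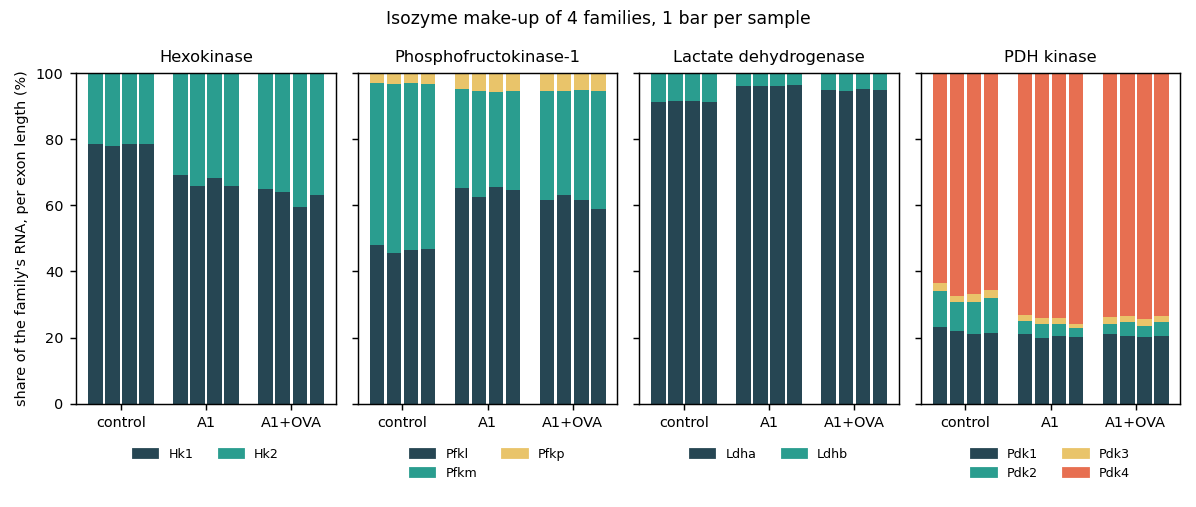
Share of each isozyme in the RNA of its family, per merged exon length, in percent, with 1 stacked bar for each of the 4 samples of control, A1 and A1-OVA. The Hk2 and Pdk4 segments are larger and the Pfkm, Ldhb and Pdk2 segments smaller in every treated sample than in every control sample.

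A1 with OVA gave much the same picture against control as A1 alone, and both comparisons share the 4 control samples. With A1-OVA, 23 of 35 members were higher and 6 lower, where 29.7% of all tested genes were higher and 28.1% lower. Past a log2 fold change of 0.5, 5 members were higher (8.94% of all tested genes) and 1, Pdk2, was lower (8.79%). The median over tested members was 0.25, beside 0.00 over all tested genes. Slc2a1, Hk2, Egln3, Pfkp and Bnip3 were the 5 higher members, while Pfkl, Pgam1, Ldha and Pdk4, which passed 0.5 with A1, reached 0.43 to 0.48.

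Compared directly, A1-OVA and A1 differed in 7 members, none past a log2 fold change of 0.5. Higher in A1-OVA were 4 of 35 members (6.27% of all tested genes), namely, in log2 fold change, Slc2a1 by 0.24 ± 0.04 (adjusted p = 3.5e-04, edgeR), Hk2 by 0.33 ± 0.09 (adjusted p = 0.026, edgeR), Ldhb by 0.24 ± 0.07 (adjusted p = 0.021, edgeR) and Hif1a by 0.14 ± 0.04 (adjusted p = 0.012, edgeR). Lower were 3 (7.06%), namely, in log2 fold change, Ldha at -0.17 ± 0.04 (adjusted p = 0.0023, edgeR), Pgk1 at -0.13 ± 0.04 (adjusted p = 0.024, edgeR) and Bnip3 at -0.16 ± 0.05 (adjusted p = 0.039, edgeR). Past 0.5 there were 0 members in either direction, where 0.778% of all tested genes were higher and 0.424% lower. Of 14 tested glycolytic enzymes from hexokinase to pyruvate kinase, Hk2 was higher in A1-OVA, Pgk1 was lower and 12 had no call. OVA and a possible insulin addition cannot be told apart in these differences. The ratio of Hk2 to Hk1 was higher by 0.28, that of Ldhb to Ldha by 0.42 and that of Pdk3 to Pdk1 by 0.39 in A1-OVA than in A1, each without overlap (exact permutation test, p = 0.0286, adjusted 0.0451). Without A1 replicate 4 the Pdk3 to Pdk1 difference was 0.22, and Pdk3 by itself had no call between the treatments (adjusted p = 0.22, edgeR). Across 20 alternative settings, the Slc2a1 and Ldha calls held in all. Those of Hk2, Pgk1, Ldhb and Hif1a were lost in 5, 5, 3 and 1, and that of Bnip3 in 6.

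Other genes of the same pathways were taken from lists chosen with earlier results of these data known, and moved in both directions. Of 20 further glycolysis and sugar transport genes 10 were tested, of which 4 were higher and 2 lower with A1, where 31.7% of all tested genes were higher and 30.8% lower. The largest rises in log2 fold change were in Pgm2 (phosphoglucomutase 2) with 0.42 ± 0.04, Adpgk (ADP-dependent glucokinase) with 0.41 ± 0.05 and Tigar (fructose bisphosphatase) with 0.39 ± 0.06, and the falls were in Galm (aldose mutarotase) with -0.71 ± 0.08 and Slc2a8 (GLUT8) with -0.70 ± 0.16. Of 10 further pentose phosphate and ribose genes 8 were tested, with 2 higher, Prps1 (log2 fold change 0.49 ± 0.05) and H6pd (0.16 ± 0.05), and 2 lower, Rpia (-0.38 ± 0.06) and Prps2 (-0.30 ± 0.04), beside the same shares of all tested genes. The median of these lists was -0.09 and 0.05.

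Further genes of pyruvate transport and use were mostly lower. Of 14 tested genes out of 20, 9 were lower and 2 higher with A1, and 9 were lower and 1 higher with A1-OVA, with medians of -0.25 and -0.19. Over all tested genes 30.8% were lower and 31.7% higher with A1, and 28.1% and 29.7% with A1-OVA. Pcx (pyruvate carboxylase, which makes oxaloacetate) went from 51.6 ± 3.6 CPM (SD, n = 4) in control to 23.1 ± 1.5 CPM with A1 and 28.8 ± 1.6 CPM with A1-OVA, a log2 fold change of -1.16 ± 0.06 (adjusted p = 2.2e-15, edgeR) and -0.84 ± 0.06 (adjusted p = 1.2e-12, edgeR). Pdpr and Pdp2, subunits of the phosphatases that switch PDH back on, had log2 fold changes of -0.55 ± 0.06 and -0.45 ± 0.08 with A1. The 2 higher genes with A1 were Dlat (the E2 subunit of PDH, log2 fold change 0.19 ± 0.04) and Bsg (basigin, the chaperone of MCT1, 0.10 ± 0.04).

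Known hypoxia-inducible genes outside the members rose more often than not. Of 28 such genes 26 were tested, and 18 were higher, 3 lower and 5 without a call with A1, with a median of 0.37, while 19 were higher, 3 lower and 4 without a call with A1-OVA, with a median of 0.43. The shares of all tested genes that were higher were 31.7% and 29.7%, and those that were lower 30.8% and 28.1%. As the list was chosen with earlier results of these data known, the comparison with these shares is a description. Ak4 (adenylate kinase 4) rose most, from 1.29 ± 0.29 CPM in control to 6.28 ± 0.91 CPM with A1 and 6.13 ± 0.48 CPM with A1-OVA, a log2 fold change of 2.28 ± 0.17 (adjusted p = 1.2e-12, edgeR) and 2.25 ± 0.16. Car12 (carbonic anhydrase 12) and Ankrd37 followed with log2 fold changes of 1.64 ± 0.35 and 1.42 ± 0.24, at 0.324 and 1.01 CPM in control. The 3 lower genes were Insig2 (log2 fold change -0.57 ± 0.05), Bnip3l (-0.21 ± 0.04) and Lox (-0.09 ± 0.04). Between A1-OVA and A1, 4 of these 26 genes were higher and 3 lower, where 6.27% of all tested genes were higher and 7.06% lower. The 2 past 0.5 were Edn1 (endothelin 1, 0.86 ± 0.09) and Ndrg1 (0.67 ± 0.08), which were named after their values were seen.

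The HIF subunits and regulators themselves pointed mostly downward, with 5 of 7 tested genes lower and 1 higher with A1, and the same numbers with A1-OVA, where 30.8% and 28.1% of all tested genes were lower and 31.7% and 29.7% higher. Epas1, which encodes HIF-2α, fell by 0.81 ± 0.09 with A1 and by 0.55 ± 0.09 with A1-OVA on the log2 scale. Arnt, the shared HIF-β partner, fell by 0.39 ± 0.04 and 0.35 ± 0.04, and Egln2 (PHD1) by 0.19 ± 0.06 and 0.30 ± 0.06 on the same scale. Arnt2, a partner with low expression here (1.47 ± 0.52 CPM in control), rose by 0.94 ± 0.22 and 1.24 ± 0.20 on the log2 scale.

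**Figure D4:**
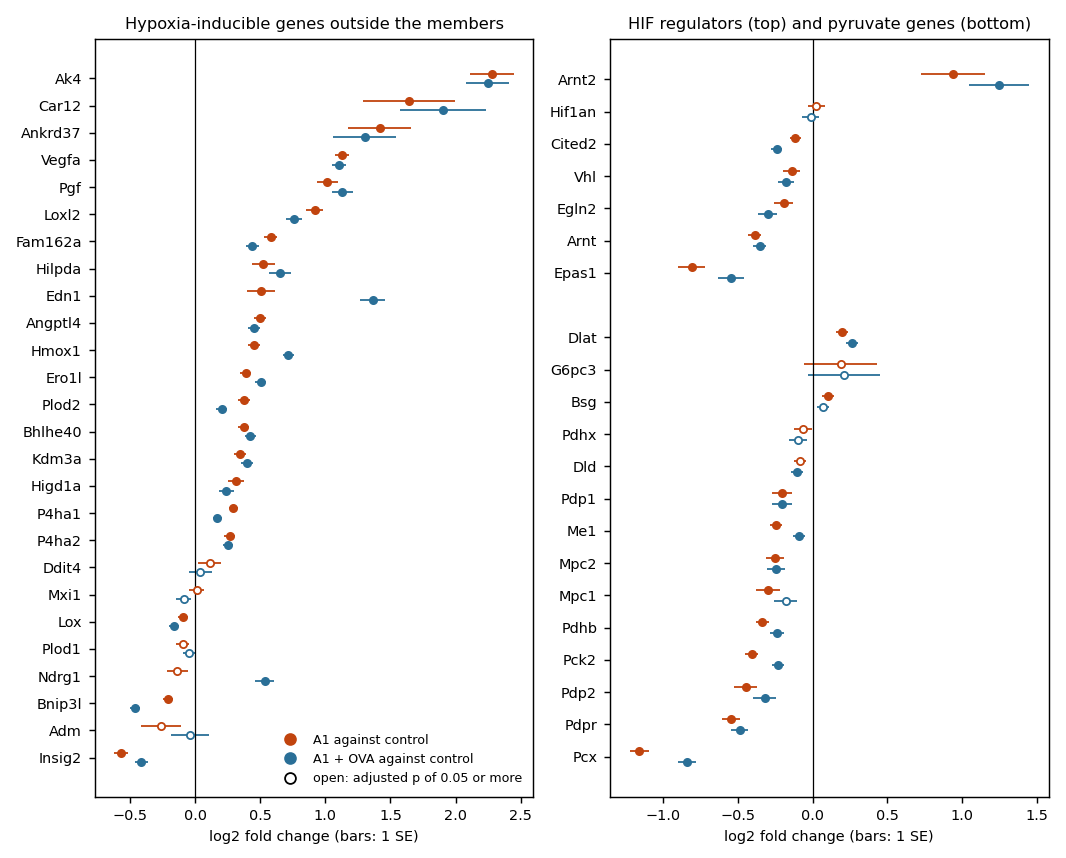
Log2 fold change against control of tested genes outside the members, with bars of 1 SE, for 26 hypoxia-inducible genes on the left and for 7 HIF regulators above 14 pyruvate genes on the right, ordered by their value with A1. Most genes on the left lie to the right of 0, while Epas1, Arnt, Pcx, Pdpr and Pdp2 lie to the left of 0 in both treatments.

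By level per exon length, Pkm, Ldha and Gapdh led the set in control with 810, 738 and 735 counts per kb scaled to the same total in each sample, and Egln3 was the lowest tested member with 0.833. With A1, Ldha stood at 1048, above Pkm at 875. These levels come from merged exon lengths and are given as a description of order.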

How the data were processed

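RNA was measured in 12 MSC samples, grouped by their titles. Per the labels, the authors made strand-specific polyA libraries and used bcl2fastq 2.20, STAR 2.7 and featureCounts 2.0 with the GRCm38 build. The deposited values are raw counts per Ensembl gene, without normalization or filter. Symbols, biotypes, exon lengths and coordinates were taken from GENCODE M21, which holds 99.53% of the 55487 identifiers.

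From these counts, protein-coding genes were filtered with filterByExpr, scaled by TMM and tested with the robust quasi-likelihood test of edgeR 4.0.16 (R 4.3.3) in 1 fit of 12 samples and 3 groups, with Benjamini-Hochberg adjustment over 11314 genes. This test is the main one, and DESeq2 1.42.0, the study's tool, was an alternative. CPM in the text carry no prior count, and log2 ratios used a prior count of 2. Isozyme pairs were compared with an exact two-sided permutation test. Depth was 13702348 to 16881995 counts, and a gene with at most 3 counts in every sample was taken as not detectable, which covers counting error only.

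The members and all lists were chosen with earlier results of these data known. All 39 members were accounted for, values in every sample were given for members called and past 0.5 in absolute log2 fold change, and for family members set against them, and in other lists up to 3 of the largest rises and falls called with A1 were named. The scripts were tested on simulated data. No pair of replicates agreed within counting noise, with variances 1.91 to 6.80 times that of counting. Alternatives were upper-quartile and RLE normalization, no filter, a minimum of 10 counts in each sample, non-coding genes kept in, fits of 2 groups only, a replicate block, a log2 fold change threshold of 1, a prior count of 0.5, Eno1 summed with Eno1b, and each sample left out in turn.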

Additional observations from a re-analysis of the deposited data

Results flagged for a closer look

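Of 105 checks of a member's CPM within a group of 4, 7 (6.67%) had 1 sample set apart from the other 3 by Dixon's test at the 95% level, and chance alone marks about 1 in 20 groups. In control replicate 2, Gpi1 stood at 219.3 CPM (others 236.5 to 239.3) and Pfkl at 122.2 CPM (others 131.9 to 133.3). In A1 replicate 2, Pgk1 stood at 244.7 CPM (others 266.0 to 267.9) and Gapdh at 953.7 CPM (others 958.2 to 958.7). Gpi1 was at 286.0 CPM in A1 replicate 3 (others 302.2 to 304.5), and Pdk3 at 1.23 CPM in A1 replicate 4 (others 1.95 to 2.06). Tkt was at 389.1 CPM in A1-OVA replicate 2 (others 364.3 to 366.7). None of the Gpi1, Pfkl, Gapdh and Pgk1 calls against control was lost when any 1 sample was left out.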

How the results depend on the processing

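All 270 alternative values of the isozyme ratios moved by less than the spread between samples. Most of them left out 1 sample, which in groups of 4 cannot move a ratio past that limit, so they are no test of stability. The others changed only the prior count. The ratio of Pdk3 to Pdk1 between A1-OVA and A1 went from 0.39 to 0.22 without A1 replicate 4. Of the alternative counts and medians, 268 of 304 kept to the limits set for them. With upper-quartile normalization the median log2 fold change over members was 0.23 (0.2273) for A1 and 0.2314 for A1-OVA. With at least 10 counts in every sample it was 0.2401 for A1, and without a filter 0.1787 for A1-OVA, since more or fewer members were tested. With a threshold of 1 there were 2 members higher and 1 lower for A1 and 2 higher for A1-OVA, without a count over all tested genes at that threshold. With upper-quartile or RLE normalization, DESeq2, no filter, all genes of the file or only the groups compared, 2 members instead of 1 were lower past -0.5 with A1-OVA, because Pfkm lies near that limit. With only the groups compared, 5 members were lower in A1-OVA than in A1, beside 848 of all 11090 genes tested in that fit. Leaving out 1 sample gave medians of 0.2331 to 0.274 for A1, 0.2309 to 0.2861 for A1-OVA and -0.03941 to -0.001694 between treatments. It gave 1 to 2 members lower past -0.5 with A1-OVA, and 2 to 4 higher and 1 to 5 lower in A1-OVA than in A1. The fewest higher came without A1 replicate 1 and the most lower without control replicate 1. Only 1 member was lower without A1 replicate 1 or 3, and likewise without A1-OVA replicate 2 or 4. Between the treatments, 487 of all 11398 tested genes were higher and 659 lower without A1 replicate 1. Without control replicate 1, 778 of 11358 were higher and 884 lower.

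Single genes changed sign in 31 of 2100 alternative values, all in comparisons they did not pass. Taldo1 with A1 was -0.01 (-0.01383) with upper-quartile normalization and -0.006287 to 0.03386 when 1 sample was left out, and Pdk3 with A1-OVA -0.0198 to 0.09959. Between A1-OVA and A1, Pfkp and Pdha1 were -0.001432 and -0.001594 with RLE, -0.001507 and -0.001642 with DESeq2, and -0.001418 and -0.001525 with all genes of the file. With 1 sample left out, the values there were -0.03729 to 0.01951 for Pfkp, -0.003093 to 0.04702 for Aldoa, -0.08787 to 0.005938 for Eno3, -0.03941 to 0.01113 for Slc16a1, -0.1225 to 0.03477 for Pdk2, -0.01661 to 0.02334 for Pdha1, -0.03471 to 0.005868 for Pgd and -0.04765 to 0.01127 for Egln1.

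Calls in A1-OVA against A1 were lost without A1 replicate 1 for Hk2 (adjusted p = 0.051, edgeR), Pgk1 (0.062), Hif1a (0.066) and Bnip3 (0.062), without A1 replicate 3 for Hk2 (0.084), Pgk1 (0.062) and Bnip3 (0.17), without A1 replicate 2 for Ldhb (0.062), without A1 replicate 4 for Pgk1 (0.063) and Ldhb (0.076), without A1-OVA replicate 2 for Pgk1 (0.055), Ldhb (0.073) and Bnip3 (0.055), without A1-OVA replicate 3 for Bnip3 (0.14), and without A1-OVA replicate 4 for Hk2 (0.072), Pgk1 (0.089) and Bnip3 (0.12). Against control, Hif1a with A1-OVA was lost without control replicate 2 (0.075) or 4 (0.051) or A1-OVA replicate 4 (0.11), and Pkm without A1-OVA replicate 3 (0.051). Hk1 with A1-OVA was lost without control replicate 1 (0.12) or 2 (0.060), A1 replicate 1 (0.053), 3 (0.057) or 4 (0.062), or A1-OVA replicate 4 (0.12), Pgd with A1 without A1 replicate 3 (0.11), and Pgd with A1-OVA without any 1 of 10 samples (all but A1 replicate 2 and A1-OVA replicate 1). Tkt with A1 passed without control replicate 2 (0.0089) or A1 replicate 1 (0.048), and Pfkfb2 with A1-OVA without A1 replicate 3 (0.047) or A1-OVA replicate 3 (0.013) or 4 (0.020). The causes were not tested.

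Samples with the same number did not deviate together, with a mean correlation of 0.02 over 12 same-numbered pairs (-0.13 to 0.16) and -0.01 over 36 other pairs, and nothing in the labels says what a number marks. With the number as a replicate block, 22 members were higher and 7 lower for A1 and 23 and 6 for A1-OVA. Of all 11314 tested genes, 3602 were then higher and 3522 lower for A1, and 3382 and 3215 for A1-OVA. Depth limits Egln3, Pdk3 and the 4 members that were not tested.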
